A study of Mus musculus with 17 samples.

Results

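The comparison described here set RNA-seq libraries of the NDST3-treated PD model against the library of the 6-OHDA-induced PD model, and asked which brain transcripts differed after NDST3 was delivered to the lesioned animals. It used every gene of the deposited table, 20328 genes, of which 19300 passed a filter on low counts and were tested, and 3 of the 17 samples of the series. There were 2 libraries of the NDST3-treated PD model and 1 of the 6-OHDA-induced PD model, and 2 sham libraries helped to estimate the spread. All came from female wild-type ICR mice, an outbred stock, operated on at 8 weeks of age. The 6-OHDA-induced PD model received the toxin 6-hydroxydopamine at 10 µg/µl into the substantia nigra on 1 side, with saline as its treatment; the volume, day and site of the saline are not given in the sources used here. The NDST3-treated PD model received the same toxin and, 5 days later, 2 µl in the substantia nigra of an AAV9 vector that carried human NDST3 under the CMV promoter, which is not restricted to a cell type. Because the lesion control received saline and no vector, an effect of NDST3 and an effect of the viral vector cannot be told apart here. The tissue is labelled only as brain. The study names the substantia nigra for an expression comparison of control and 6-OHDA mice, without stating whether it used these libraries, and the side, the harvest time and the number of animals behind each library were not found in the sources used here.

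NDST3 is an enzyme of the Golgi that removes acetyl groups from the sugar chain of heparan sulfate and adds sulfate in their place, and heparan sulfate chains on core proteins bind growth factors and matrix proteins at the cell surface. 6-hydroxydopamine enters catecholamine neurons through their transporters and kills them by oxidation, and dying dopamine neurons are followed by activation of microglia and astrocytes. The midbrain that holds the substantia nigra also holds the serotonin neurons of the raphe nuclei, and lies close to the hypothalamus and the thalamus.

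The promoters of 6 genes are shown because the results turn on them: a serotonin pair that rose, a hypothalamic peptide pair that fell by the most, and a pair that fell from the cell cycle list, in which 15 of 18 genes fell. Each is 300 bases of RefSeq on build GRCm38.p6, from 250 before the gene start to 50 after it, written 5′ to 3′ on the gene's strand. For Fev the start used lay inside the span of the gene, which begins at chr1:74885473 on the minus strand. Capitals mark letters searched for on either strand. In the serotonin pair they mark AGATAA, which transcription factors of the Gata family can bind. In the hypothalamic peptide pair they mark TATAAA, the box at which transcription can be set to start. In the cell cycle pair they mark 2 motifs, of which the first is CCAAT, which reads as ATTGG where it lies on the opposite strand. The other motif of that pair is TTTGAA, known as the cell cycle homology region. On the opposite strand it reads as TTCAAA. The motifs marked here did not overlap each other. Each motif is marked in its own pair only. Unmarked matches lie in other windows, such as TATAAA in that of Tph2 and AGATAA in those of Pmch and Top2a.
Tph2 (chr10:115184973-115185272, minus strand): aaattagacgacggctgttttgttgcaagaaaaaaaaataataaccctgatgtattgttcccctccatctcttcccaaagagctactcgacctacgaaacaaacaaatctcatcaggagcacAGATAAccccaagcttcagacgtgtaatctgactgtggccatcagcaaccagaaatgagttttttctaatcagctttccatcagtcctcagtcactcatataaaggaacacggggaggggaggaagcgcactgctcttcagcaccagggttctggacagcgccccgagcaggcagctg
Fev (chr1:74885359-74885658, minus strand): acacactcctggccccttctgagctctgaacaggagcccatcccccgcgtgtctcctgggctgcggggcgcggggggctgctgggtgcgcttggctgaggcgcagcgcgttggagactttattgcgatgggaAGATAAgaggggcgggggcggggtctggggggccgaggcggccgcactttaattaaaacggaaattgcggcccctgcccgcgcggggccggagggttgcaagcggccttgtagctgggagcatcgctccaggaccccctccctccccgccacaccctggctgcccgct
Hcrt (chr11:100762882-100763181, minus strand): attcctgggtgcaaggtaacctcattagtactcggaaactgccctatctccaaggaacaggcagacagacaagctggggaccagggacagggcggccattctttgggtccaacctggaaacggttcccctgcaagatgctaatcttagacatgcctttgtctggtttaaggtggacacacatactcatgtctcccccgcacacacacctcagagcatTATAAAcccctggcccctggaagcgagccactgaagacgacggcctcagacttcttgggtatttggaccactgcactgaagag
Pmch (chr10:88090822-88091121, plus strand): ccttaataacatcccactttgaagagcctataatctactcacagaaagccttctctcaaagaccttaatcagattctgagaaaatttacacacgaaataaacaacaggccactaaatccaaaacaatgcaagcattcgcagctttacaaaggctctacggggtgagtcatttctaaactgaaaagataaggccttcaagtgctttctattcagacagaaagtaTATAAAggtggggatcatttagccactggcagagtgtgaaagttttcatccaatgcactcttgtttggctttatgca
Top2a (chr11:99024140-99024439, minus strand): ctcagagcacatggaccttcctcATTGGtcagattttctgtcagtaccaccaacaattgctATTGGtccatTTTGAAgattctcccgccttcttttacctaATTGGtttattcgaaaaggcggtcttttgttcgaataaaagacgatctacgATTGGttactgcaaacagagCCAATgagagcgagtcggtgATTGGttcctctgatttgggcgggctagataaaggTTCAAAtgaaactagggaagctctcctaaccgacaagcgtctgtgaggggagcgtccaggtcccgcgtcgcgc
Cdk1 (chr10:69352863-69353162, minus strand): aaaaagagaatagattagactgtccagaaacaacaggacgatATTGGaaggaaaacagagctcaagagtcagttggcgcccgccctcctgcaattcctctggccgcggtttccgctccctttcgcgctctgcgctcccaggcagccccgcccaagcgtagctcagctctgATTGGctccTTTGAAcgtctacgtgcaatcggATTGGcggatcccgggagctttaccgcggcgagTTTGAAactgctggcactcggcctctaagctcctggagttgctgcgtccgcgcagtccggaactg

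AGATAA was found in 11.4% of 27025 promoters. Among tested genes it was found in 7.0%, and among those that rose in 6.86%. The window of Slc6a4, the serotonin gene with the largest rise, held no match. TATAAA was found in 14.2% of the 27025 promoters. CCAAT was found in 37.9% of them and in 13 of the 15 cell cycle genes with a promoter in the table, and TTTGAA in 18.1% of them and in 6 of those 15. These matches describe the letters of the windows and do not show that a factor binds there.

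The libraries held 51003699 to 70533326 counts. Levels are given as CPM, counts scaled to a common library size with TMM factors, and a difference is the log2 fold change of the NDST3-treated over the 6-OHDA library with its standard error (SE) from edgeR's quasi-likelihood fit. With 1 library on the lesion side, the spread came from the sham and NDST3-treated pairs, and the lone library was assumed to vary like them. The study states in general that its replicates are independent animals or cultures, but the labels do not tie these libraries to animals, so the p-values measure the spread between these libraries, which may be technical.

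The 6-OHDA library stood apart from the other 4. In edgeR's fit, 6916 genes (35.8%) differed between it and sham at an adjusted p under 0.05, while 0 differed between the NDST3-treated and sham libraries, with 2744 at an unadjusted p under 0.05 and 1039 called by DESeq2. Genes that mark brain regions were among those that set it apart. Hcrt and Pmch, peptides of the lateral hypothalamus, were at 58.6 and 100 CPM in the 6-OHDA library and at 3.97 CPM or less in each of the other 4, whereas Slc6a4 and Tph2, markers of raphe serotonin neurons, were at 0.271 and 0.949 CPM in it and at 44.2 CPM or more in the others. The part of tissue composition in the results below was not tested. In bulk tissue, fewer cells of a type and less RNA per cell cannot be told apart.

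Against the 6-OHDA library, 1748 genes (9.06% of those tested) rose and 1271 (6.59%) fell in the NDST3-treated libraries at a Benjamini-Hochberg adjusted p under 0.05. Adjusted p-values of these 3019 genes (15.6%) lay between 0.032 and 0.04998. In simulated data of this size, unchanged genes made up a larger share of such calls than the threshold allows. Far fewer genes were changed in that simulation than were called here. Its share depends on that number, so the share in these data is not known. Both NDST3-treated libraries lay above the 6-OHDA library in 42.4% of the genes tested and below it in 43.2%, so a gap between the groups was common. The median change was 1.01 (log2) among genes that rose and -1.03 among those that fell, and 50.5% and 51.7% of them changed by 2-fold or more. By the thresholds of the study (2-fold or more, with an unadjusted p under 0.05), 1408 genes (7.3%) were higher and 1616 (8.37%) lower. No gene passed the adjusted threshold when only the 3 libraries of the 2 groups were fitted, or without either sham library, although 5924, 5994 and 5979 genes had an unadjusted p under 0.05 in those fits. Without the first NDST3-treated library 1 gene passed, and without the second 3163 did.

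**Figure D1:**
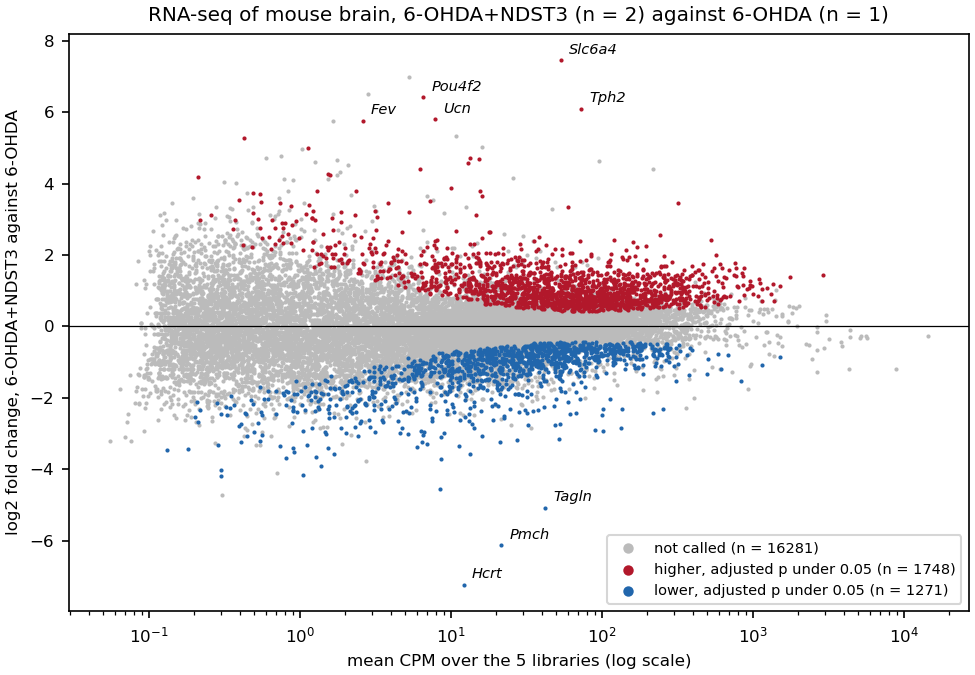
Log2 fold change of each tested gene, NDST3-treated (2 libraries) over 6-OHDA (1 library), against its mean CPM over 5 libraries on a log axis. Red points (1748) rose and blue points (1271) fell at an adjusted p under 0.05, and the labelled genes reach from 7.46 for Slc6a4 to -7.24 for Hcrt.

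The largest rise was that of a serotonin gene, and Tph2 and Fev were also among the 12 largest. Slc6a4 (chr11:76998597-77032343), the serotonin transporter, was at 0.271 CPM in the 6-OHDA library and at 52.3 and 44.2 CPM in the NDST3-treated libraries, a log2 change of 7.46 (SE 0.96, adjusted p = 0.032). Its sham levels, 124 and 46.3 CPM, overlapped the NDST3-treated ones, and only the 6-OHDA library was near 0. Tph2 (chr10:115078641-115185022), which carries out the rate-limiting step of serotonin synthesis in neurons, went from 0.949 CPM to 70.9 and 59.6 CPM, a change of 6.10 (SE 0.78). Fev, the transcription factor that sets serotonin neuron identity, had 2 counts in the 6-OHDA library and 265 in the NDST3-treated pair, a ratio of 57.4 with an exact 95% counting interval of 15.7 to 477. That interval covers counting error only. Of the 6 genes for synthesis, storage and uptake of serotonin, 4 rose, of the 5 transcription factors 2 (Fev and Gata3), and of the 6 receptors 4. Htr1a, the autoreceptor of raphe neurons, was at 2.98 CPM in the 6-OHDA library and at 22.9 and 14.1 CPM after NDST3 (change 2.63, SE 0.39). Htr2c, a receptor on target neurons, was at 31.5 CPM against 138 and 118 CPM.

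Dopamine genes rose from very low levels and stayed below sham. Th, which makes the precursor of dopamine, was at 2.15 CPM in the 6-OHDA library, at 11.5 and 8.03 CPM in the NDST3-treated libraries, and at 115 and 135 CPM in sham. Its rise was 2.18 (SE 0.29, adjusted p = 0.032). Both NDST3-treated values were above the 6-OHDA value and far below both sham values. Slc6a3, the dopamine transporter, was at 0.155 CPM in the 6-OHDA library, at 6.38 and 1.34 CPM after NDST3 and at 228 and 243 CPM in sham, and did not pass the test (4.62, SE 1.39, adjusted p = 0.0798). Ddc and Slc18a2, which make and store dopamine and serotonin alike, rose by 2.03 and 2.40. Of the 5 genes for synthesis, storage and uptake 3 rose. Those 3 include Ddc and Slc18a2, which the serotonin list shares. Among 7 dopamine neuron transcription factors only Foxa2 rose (3.25, SE 0.48), and Nr4a2, which maintains dopamine neurons, was at 3.19 CPM against 3.58 and 7.02 CPM (0.73, SE 0.43). The share called among these 7, 14.3%, was near the 15.6% over all genes tested. Of 9 receptors and other markers Drd2, Sncg and Slc10a4 rose and Sox6 fell. The largest of these rises was that of Drd2, the dopamine D2 receptor, from 5.17 CPM to 30.4 and 16.3 CPM.

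Genes that mark the midbrain roof and the hindbrain rose beside them. Of 12 tested, 5 rose, all 12 had a positive change, and the median was 3.55 against 0.00287 over all genes. Pou4f2, a transcription factor of the superior colliculus and retina, was at 0.116 CPM in the 6-OHDA library, at 13.2 and 7.24 CPM after NDST3 and at 2.25 and 9.96 CPM in sham. Pax7, which patterns the dorsal midbrain, was at 0.678 CPM against 10.4 and 9.38 CPM and had the smallest p among rises at a mean of 10 CPM or more (3.86, SE 0.22). Pou4f1 and Tfap2b rose by 4.72 and 4.68, and Ucn, a peptide of the Edinger-Westphal nucleus, by 5.81. In each of these genes the 6-OHDA library was the lowest of the 5. Slc6a5, the glycine transporter of hindbrain inhibitory neurons, rose by 3.66 from 1.26 CPM to 20.7 and 11.1 CPM. Of 10 thalamic and habenular markers 4 rose, Calb2 (2.13), Tac1 (1.95), Pou4f1 and Slc17a6, of which Pou4f1 is shared with the midbrain roof list and Slc17a6 with the glutamate list. The 2 NDST3-treated libraries differed in this list, with median differences of 0.47 and 1.76 from the 6-OHDA library and summed levels of 795.5 and 1319 CPM against 696.6 CPM.

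Hypothalamic peptides held the largest falls. Hcrt (chr11:100761693-100762931), the precursor of the orexins that keep animals awake, was at 58.6 CPM in the 6-OHDA library and at 0.739 and 0.0335 CPM in the NDST3-treated ones, the last from 2 counts. Its fall was -7.24 (SE 1.12, adjusted p = 0.0339). Pmch (chr10:88091072-88092374), the precursor of melanin-concentrating hormone, went from 100 CPM to 1.39 and 1.49 CPM (-6.12, SE 1.01). Sham levels of both were low, between 0.369 and 3.97 CPM, so the 6-OHDA library alone was high. Of 12 hypothalamic peptides tested 2 fell, and Cartpt, an appetite peptide also made outside the hypothalamus, rose from 5.13 CPM to 65.3 and 39.3 CPM (3.35, SE 0.50). The share of these peptides called was 25%, against 15.6% over all genes tested. None of 8 hypothalamic transcription factors was called by edgeR, with 2 at an unadjusted p under 0.05 and 2 called by DESeq2.

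**Figure D2:**
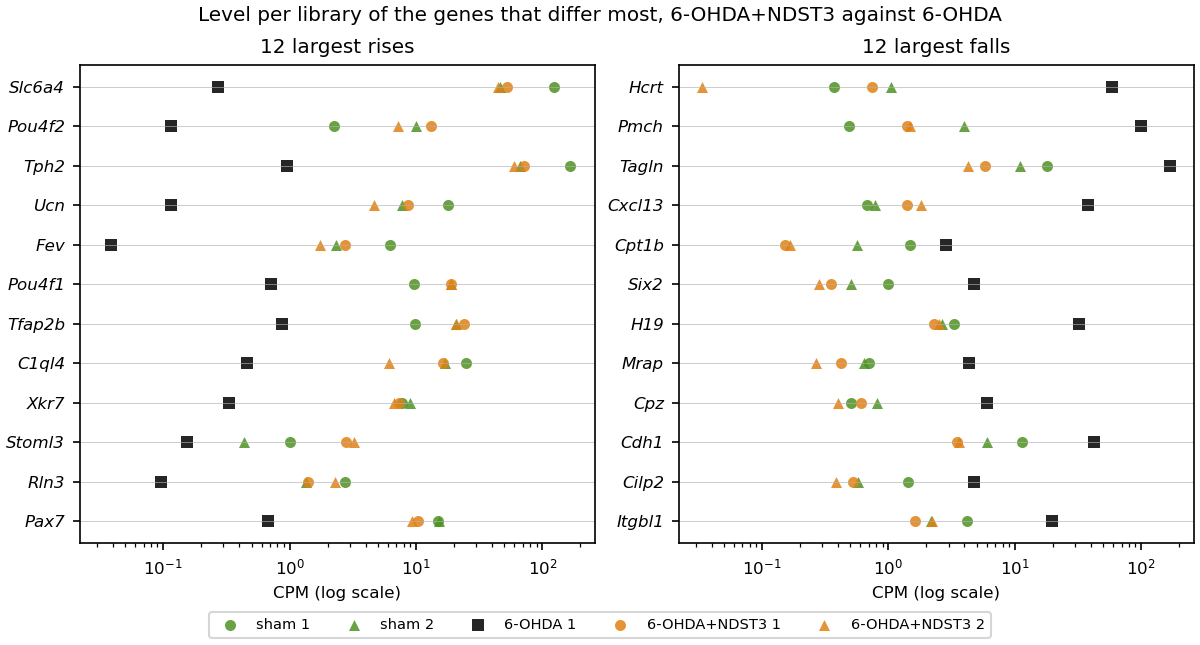
CPM per library on a log axis for the 12 genes with the largest rises and the 12 with the largest falls among called genes with a mean of at least 1 CPM. The black square (6-OHDA) lies apart from the 2 sham (green) and 2 NDST3-treated (orange) libraries in each row, on the left for rises such as Slc6a4 (0.271 CPM) and on the right for falls such as Hcrt (58.6 CPM).

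Genes that all neurons use rose together. Of 8 vesicle release genes 6 rose and of 11 cytoskeletal and RNA-binding genes 9, with none falling and medians of 1.16 and 1.04. Snap25, part of the complex that fuses vesicles with the membrane, was at 686 CPM in the 6-OHDA library and at 1949 and 1618 CPM after NDST3 (1.38, SE 0.22). Rab3a, a small GTPase of synaptic vesicles, was at 181 CPM against 486 and 419 CPM (1.32, SE 0.16). Nefl and Nefm, the light and medium neurofilaments of axons, rose by 1.79 and 2.01. Rbfox3, the NeuN antigen, was at 38.5 CPM against 97.4 and 78 CPM. In all of these the 6-OHDA library was the lowest of the 5, and the NDST3-treated levels lay below or near sham. Summed over the 8 vesicle genes, the level was 2697 CPM in the 6-OHDA library, 5966 and 5777 CPM after NDST3, and 6799 and 7666 CPM in sham.

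Channels and receptors followed the same direction. Of 15 sodium and calcium channel genes 8 rose, of 17 potassium channel genes 6, and of 14 nicotinic and cholinergic genes 6, with none falling. Scn1a, a sodium channel of fast-firing neurons, rose by 1.68 (SE 0.27) from 88.7 CPM to 324 and 245 CPM. Kcnc1, a potassium channel that allows high firing rates, rose by 1.43 (SE 0.23) from 125 CPM to 374 and 299 CPM. Chrna5, a nicotinic subunit, was at 0.252 CPM against 1.07 and 1.06 CPM after NDST3 and 6.47 and 5.98 CPM in sham. Its rise of 2.07 left it below both sham libraries. Of 9 GABA and glycine genes 7 rose, led by the glycine receptor Glra1 (3.80, SE 0.42), and Gad2, which makes GABA, rose by 1.17. Of 9 glutamate genes only Slc17a6, the vesicular transporter of subcortical neurons (1.81), and Grin1, the common NMDA receptor subunit (1.30), rose. The share of glutamate genes called was 22.2%, against 15.6% over all genes tested. Slc17a7, the transporter of cortical neurons, was at 142 CPM in the 6-OHDA library and at 4.38 and 108 CPM in the NDST3-treated libraries, so the 2 treated libraries disagreed by more than they differed from the lesion on average.

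Matrix genes fell together. Of 16 collagens 12 fell, with a median of -2.37. Col1a1, the main fibrillar collagen, was at 273 CPM in the 6-OHDA library, at 28.4 and 43.9 CPM after NDST3 and at 66.7 and 38 CPM in sham (-2.92, SE 0.39). Col6a2 had a smaller error, with 165 CPM against 25.4 and 23.8 CPM (-2.75, SE 0.24). The 6-OHDA library was the highest of the 5 for both, and the other 4 overlapped. Of 18 other matrix genes 9 fell and none rose, among them Lox, which cross-links collagen (-2.74), Nid1 of the basement membrane (-2.24) and fibronectin, Fn1 (-1.52). Serpinh1, the collagen chaperone, was at 128 CPM against 30.9 and 31.9 CPM (-2.03, SE 0.16). Of 8 neural chondroitin sulfate and link genes Ncan and Vcan, proteoglycans of scar and progenitors, fell by 0.79 and 1.03 on the log2 scale, while Hapln4, a link protein of nets around axons, rose by 1.98.

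Vessel, meningeal and blood genes fell beside the matrix. Tagln (chr9:45929628-45936058), an actin-binding protein of smooth muscle, was at 170 CPM in the 6-OHDA library, 5.79 and 4.27 CPM after NDST3, and 18.1 and 10.9 CPM in sham (-5.08, SE 0.35). Acta2, smooth muscle actin, was at 66.7 CPM against 10.3 and 14.3 CPM. Both NDST3-treated values lay below both sham values for each of these genes. Of 11 mural and smooth muscle genes 6 fell, of 11 fibroblast and meningeal genes 4 (Dcn, Lum, Apod and Pdgfra), and of 12 endothelial genes 4 (Cdh5, Cldn5, Esam and Pecam1). All 5 red cell genes fell, by 2.31 to 2.49 on the log2 scale, and their summed level was 1817 CPM in the 6-OHDA library against 348.9 and 350.4 CPM after NDST3 and 711.4 and 404.4 CPM in sham. The haemoglobin pairs Hba-a1 and Hba-a2, and Hbb-bs and Hbb-bt, are near copies whose reads may be shared, so their separate levels are uncertain.

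The choroid plexus list separated the 2 NDST3-treated libraries. Ttr, the carrier of thyroid hormone that this tissue makes in bulk, was at 24 CPM in the 6-OHDA library, 2.3 CPM in the first NDST3-treated library and 1028 CPM in the second. The summed level of the 14 genes was 485.9, 488.8 and 2193 CPM in the same order, and edgeR called none of them, with 1 at an unadjusted p under 0.05 and 1 called by DESeq2. All 14 had a positive fitted change, with a median of 1.67. Of 8 ependymal genes Ccdc153 and Tmem212 rose, by 3.46 and 2.55. The share of this list called was 25%, against 15.6% over all genes tested.

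**Figure D3:**
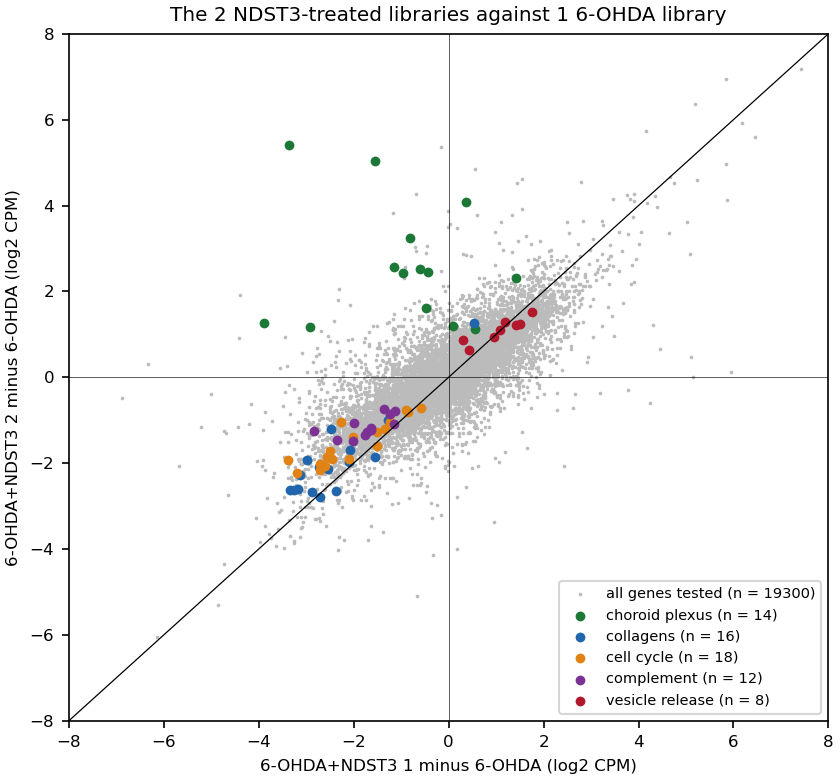
Difference of each NDST3-treated library from the 6-OHDA library in log2 CPM, the first on the x axis and the second on the y axis, for 19300 genes with 5 lists in colour and the line of equality in black. Vesicle genes lie at the upper right, 15 of 16 collagens and all cell cycle genes at the lower left, and the 14 choroid plexus genes lie above the line.

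Cell cycle genes fell as a nearly complete list, 15 of 18, with a median of -1.86. Top2a, which untangles DNA in dividing cells, was at 27 CPM in the 6-OHDA library, at 2.91 and 5.76 CPM after NDST3 and at 1.28 and 0.623 CPM in sham. Cdk1, the kinase that starts mitosis and whose promoter is shown above, was at 10.2 CPM against 1.55 and 2.5 CPM (-2.34, SE 0.36). Mki67, the Ki-67 antigen, was at 17.4 CPM against 2.62 and 3.89 CPM. In these genes the NDST3-treated libraries lay between the 6-OHDA library and sham. Of 20 cytosolic ribosomal protein genes 13 fell by small amounts, from 0.49 to 0.85 on the log2 scale. Of 14 genes of p53 response and cell death 7 fell, among them Casp8 (-1.38), and Ripk3 and Mlkl, which act in necroptosis (-2.35 and -2.33). Of 16 immediate early genes Fosl2, Junb, Nr4a1 and Btg2 fell, 25% of the list against 15.6% called over all genes tested.

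Immune and glial activation genes were lower in most members, but few passed the test. edgeR called none of 13 homeostatic microglial genes (median -0.96), with 10 at an unadjusted p under 0.05 and 9 called by DESeq2. It called none of 12 complement genes (median -1.44), with 8 at an unadjusted p under 0.05 and 9 called by DESeq2. C1qa, a chain of the first complement component that microglia make, was at 1025 CPM in the 6-OHDA library, at 312 and 425 CPM after NDST3 and at 85.3 and 47.5 CPM in sham (-1.48, SE 0.37, adjusted p = 0.0568). The NDST3-treated libraries thus lay between the 6-OHDA library and sham. Of 20 disease-associated microglial genes Cd63, Csf1 and Ctsb fell, and Gpnmb was at 824 CPM against 213 and 434 CPM (-1.35, SE 1.09, adjusted p = 0.408). Cxcl13, the B cell attractant, had the largest fall of the immune lists, from 37.9 CPM to 1.39 and 1.83 CPM (-4.55, SE 0.23). Of 15 chemokine genes 2 fell, of 12 antigen presentation genes 2 (B2m and Tap2), of 18 interferon-stimulated genes 1 (Ifitm3), of 10 monocyte and macrophage genes 2 (Ccr2 and Plac8). In that order 13.3%, 16.7%, 5.56% and 20% fell. Over all genes tested 6.59% fell and 15.6% were called in either direction. Of 13 cytokine genes none was called by edgeR, with 9 at an unadjusted p under 0.05 and 8 called by DESeq2. Of 4 tested B cell genes Ighm fell, while edgeR called no gene among 7 of T and NK cells and 4 of neutrophils, with 2 and 2 at an unadjusted p under 0.05 and 0 and 1 called by DESeq2.

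Among astrocyte reactivity genes 4 of 16 fell, Nes, Hspb1, Emp1 and Tnc, with a list median of -1.76. Gfap, the filament that marks reactive astrocytes, was at 6237 CPM in the 6-OHDA library and at 2136 and 3052 CPM after NDST3 (-1.27, SE 0.48, adjusted p = 0.129). Vim, a filament of the same cells, was at 1236 CPM against 206 and 404 CPM (-2.02, SE 0.60, adjusted p = 0.0788). Of 13 genes of astrocyte function Gpc5 rose and Sox9 fell. In the oligodendrocyte lineage Cldn11 fell among 14 myelin genes, and Olig1 and Pdgfra among 10 progenitor genes. The shares called were 25% for astrocyte reactivity, 15.4% for astrocyte function, 7.14% for myelin and 20% for progenitors. Over all genes tested the share was 15.6%.

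Genes of heparan sulfate, the substrate of NDST3, moved in both directions. Mouse Ndst3 (chr3:123526166-123691174) was at 7.96 CPM in the 6-OHDA library, at 23.3 and 13.5 CPM in the NDST3-treated libraries and at 14.1 and 21 CPM in sham, and did not pass the test (1.21, SE 0.43, adjusted p = 0.111). The vector carries the human gene and the table lists mouse genes, so this level is not a check of delivery. Of 21 genes of synthesis and editing Hs6st2 (1.53), Hs3st4 (1.17) and Extl2 (0.60) rose, the first 2 of which add sulfate to the chain, and Sulf2, which removes sulfate outside the cell, fell (-0.81). Of 12 core proteins Gpc5 rose and Hspg2, Gpc4, Gpc6, Sdc1 and Sdc4 fell. The share called was 19% for synthesis and editing, near the 15.6% over all genes tested, and 50% for core proteins. The most marked core protein fall was that of Hspg2, perlecan of basement membranes, from 65.3 CPM to 15.9 and 19.3 CPM (-1.89, SE 0.31).

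Antioxidant, metabolic and trophic genes gave mixed counts. Ncoa7 (chr10:30645582-30807700), which protects against oxidative damage, was at 36 CPM in the 6-OHDA library and at 79.4 and 80.6 CPM after NDST3 (1.15, SE 0.15, adjusted p = 0.032), with sham at 78.5 and 94.5 CPM. Of 20 NRF2 and antioxidant genes Ncoa7, Oxr1 and Sod2 rose and Hmox1 (-1.81), Prdx6 (-1.37), Prdx1 and Gpx1 fell. edgeR called none of 20 oxidative phosphorylation genes (median 0.30), with 8 at an unadjusted p under 0.05 and 6 called by DESeq2. Of the cholesterol synthesis genes 4 of 14 rose, while 2 of 12 lipid storage genes fell (Soat1 and Lipa), and of 17 lysosomal genes Atp6v1b2 rose and 5 fell. Of 20 neurotrophic ligands and receptors Nrg1 (1.71) and Shh (1.34) rose and Cntf (-2.34) fell. Of 14 genes of inherited Parkinson disease Synj1 and Dnajc6, which act in vesicle uncoating, rose by 1.20 and 1.14. Of 13 heat shock genes Hsph1 rose and Hspb1 fell, and of 11 axon injury genes Sox11 fell. Cyb561 rose in the noradrenaline list (2 tested), and Neurod6 fell among 14 cortical and striatal markers. Over all genes tested 15.6% were called. The lipid storage (16.7%), neurotrophic (15%), heat shock (15.4%), axon injury (9.09%) and cortical and striatal lists (7.14%) were near or below that share. The antioxidant (35%), lysosomal (35.3%), cholesterol synthesis (28.6%) and Parkinson disease lists (21.4%) were above it.

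**Figure D4:**
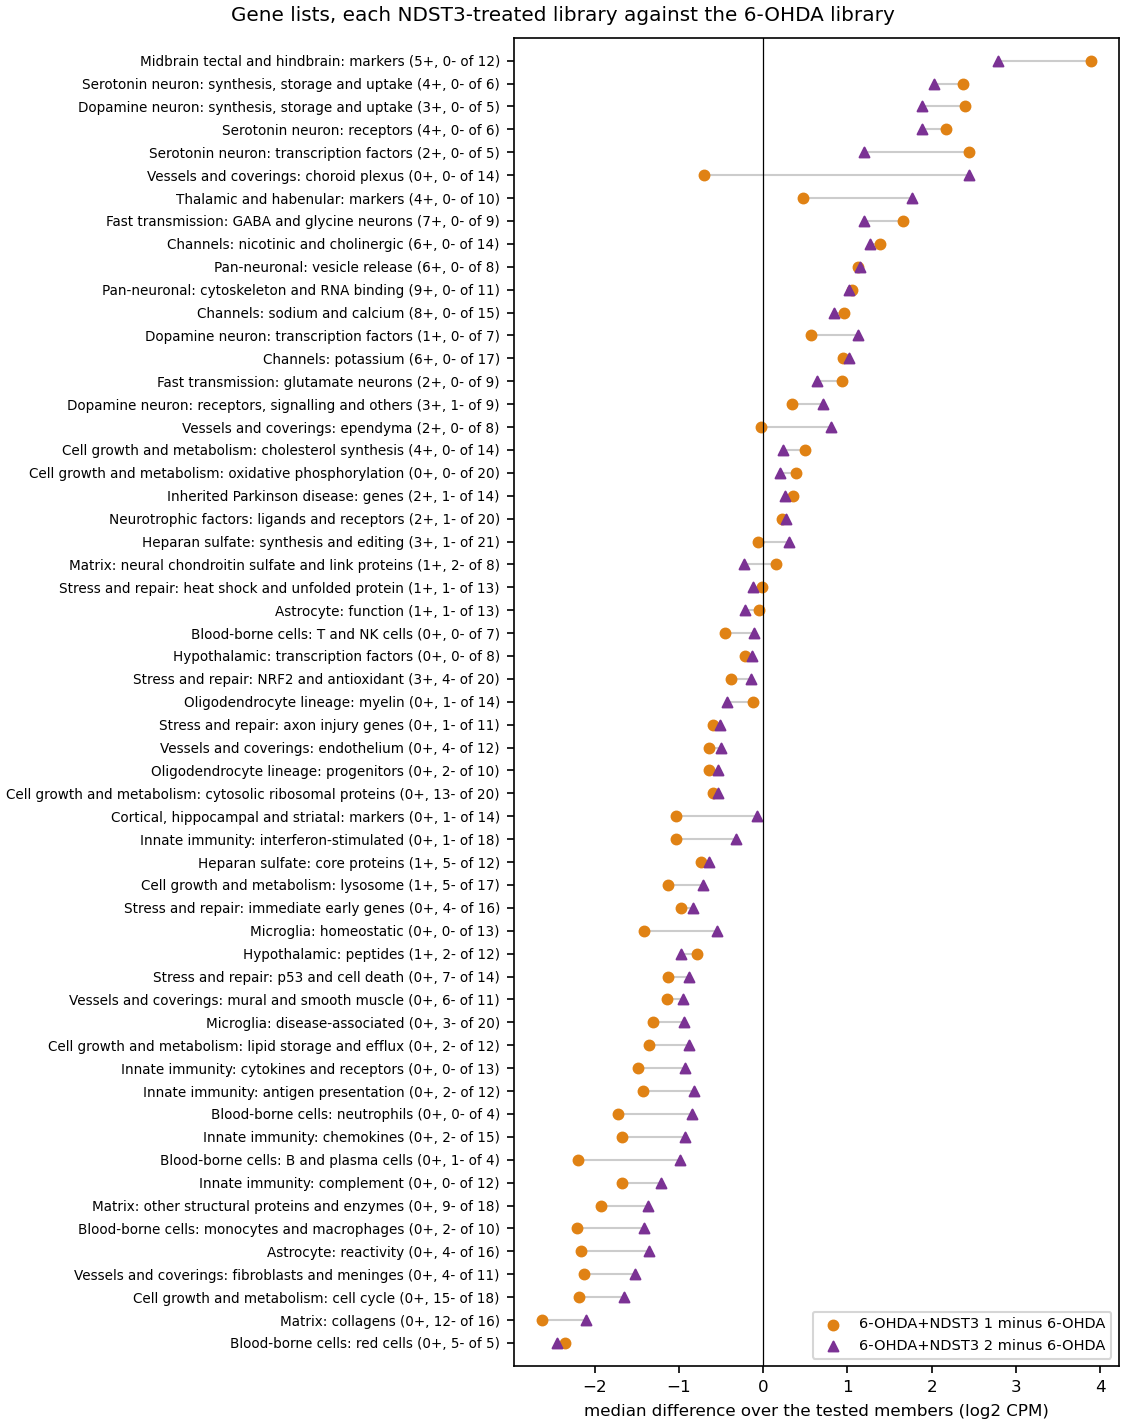
Median difference in log2 CPM of each gene list with at least 4 tested members, for the first (circle) and second (triangle) NDST3-treated library against the 6-OHDA library. Counts after each name give members that rose (+) and fell (-) of those tested, and the choroid plexus list has its 2 symbols on opposite sides of 0, at -0.70 and 2.44.

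The 2 NDST3-treated libraries differed in how far they lay from the 6-OHDA library. Among genes that rose, the first library had the larger change in 78% and median differences were 1.07 and 0.939, and among genes that fell it was 80.4%, with -1.14 and -0.914. Called genes with the widest gap between them included Syt2, a fast calcium sensor of vesicle release, at 463 and 203 CPM against 30 CPM in the 6-OHDA library, and Ccr2, at 1.76 and 4.09 CPM against 15.5 CPM.

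Called genes were not spread evenly over length and level. When the tested genes were split into 5 equal groups by the length that count and FPKM imply, the share that rose went from 2.93% of the shortest to 13.8% of the longest, while the share that fell stayed between 6.11% and 6.92%. By mean CPM the share that rose went from 0.907% to 22%. The part of length and level in the calls was not tested.

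Other assays of the same study were read at the called genes. The H3K27ac and ATAC tables give 1 signal column per group, with no replicate error, and a gene assigned by the authors to each region. The median log2 ratio of H3K27ac signal, NDST3-treated over 6-OHDA, was 0.37 over 1232 regions at genes that rose, 0.40 over 665 regions at genes that fell, and 0.39 over all 10458 regions matched. In the same order, 97.2%, 95.9% and 96.6% of these regions had a ratio above 0. How the deposited regions were selected was not found in the sources used here. A positive H3K27ac ratio therefore does not set the called genes apart. For ATAC-seq the medians were 0.089, 0.11 and 0.10. The 5 H3K27ac regions assigned to Ncoa7 had log2 ratios of 0.07 to 0.67, 3 of them below the median of all regions. The region coordinates were not used, because only 3.81% of H3K27ac and 10.7% of ATAC regions lay within 2000 bases of a GRCm38.p6 start of their assigned gene.

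In the scRNA-seq table of mean levels per cluster, genes that rose were most often highest in cluster 2, with 50.1% against 31.8% of all genes and 16.1% of genes that fell. Only genes with a mean above 0.1 in some cluster were counted. That held for 59.5% of genes that rose, 86.9% of genes that fell and 68.1% of all genes, so coverage differed. Genes that rose were also highest more often than all genes in cluster 5 (12.9% against 10.5%). Their share in cluster 8, 0.993% against 0.865%, rests on 10 of 1007 genes. Map2, Snap25 and Syt1 were highest in that cluster, as were the astrocyte gene Aqp4 and the myelin gene Mog, so it is not named here as 1 cell type. Genes that fell were highest more often than all genes in cluster 5 (14.8% against 10.5%), where Acta2, Tagln and Myh11 peaked, in cluster 6 (12.3% against 9.82%), where P2ry12, Tmem119 and Csf1r peaked, and in cluster 7 (20.7% against 16.6%), where Cldn5, Pecam1 and Cdh5 peaked. The same held in cluster 1 (10.3% against 6.35%) and cluster 3 (7.8% against 4.76%). These shares come from 1 scRNA-seq library per group and carry no test.

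**Figure D5:**
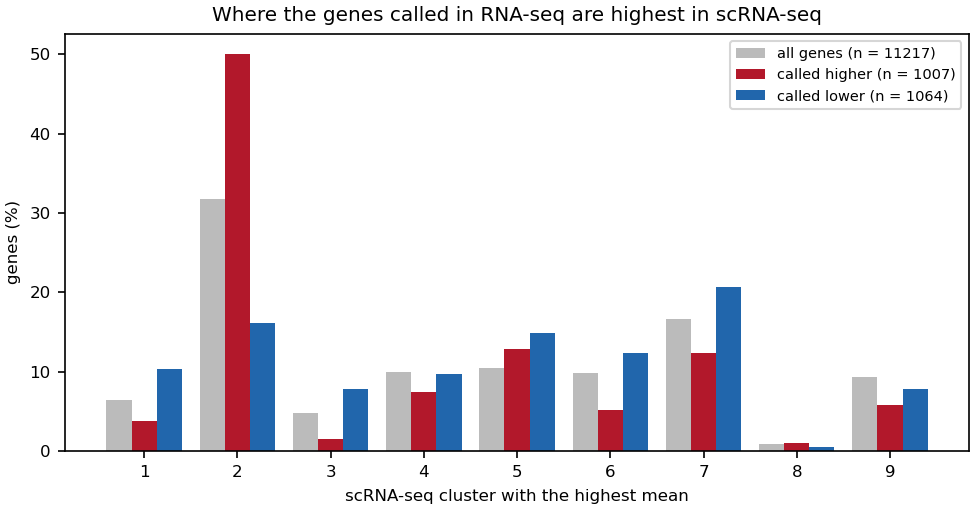
Share of genes whose highest scRNA-seq mean lies in each of 9 clusters, for all genes (grey), genes that rose in RNA-seq (red) and genes that fell (blue); genes need a mean above 0.1 in some cluster. Bars start at 0, and the red bar of cluster 2 reaches 50.1% beside 31.8% for all genes.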

How the data were processed

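RNA-seq was made by the authors from poly-A RNA with a stranded kit, trimmed with Trimmomatic 0.38, aligned to mm10 with HISAT2 2.1.0 and quantified with StringTie 2.1.3b. The authors deposited a read count per gene, used here, with FPKM (an alternative) and TPM values (not tested). Each listed gene has at least 1 count in every library. The deposited H3K27ac and ATAC values are a tag signal per region and group, normalized by the authors in a way not stated; the labels list 2 H3K27ac libraries per group, which share 1 column, and 1 ATAC library per group. The deposited scRNA-seq means are named mean counts, and fit a natural log of 1 plus a count scaled per cell by the authors.

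Counts of 5 libraries were fitted together in edgeR 4.0.16 (R 4.3.3) with filterByExpr, TMM and 2 residual degrees of freedom; p-values were adjusted by Benjamini-Hochberg over 19300 genes. The biological coefficient of variation was 20.3%. Signal ratios used a pseudocount of 1. Alternatives used DESeq2 1.42.0, limma 3.58.1 on log2(FPKM + 1 or 0.1), other scalings and filters, a replicate block and each library left out; the code was tested on simulated data, in which adjusted calls exceeded their nominal error rate. Named genes were the 12 largest changes per direction with a mean of at least 1 CPM, the 10 smallest p-values per direction at 10 CPM or more, the 5 called per direction with the widest gap between NDST3-treated libraries, Ndst3, Ncoa7, and members of 59 gene lists, 58 with a tested member; further examples were chosen after their values were seen. The members and lists were chosen with earlier results of these data known. No pair of libraries agreed within sampling noise. Promoters came from RefSeq (14148 tested genes matched). The authors' own fold changes and p-values were not used. Some genes are not reported here.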

Additional observations from a re-analysis of the deposited data

How the results depend on the processing

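With 1 lesion library the calls rest on few degrees of freedom, and the number of genes at an adjusted p under 0.05 (3019) depended on the fit: 5228 by DESeq2, 0 with only the 3 libraries of the 2 groups, and 0 to 3163 when 1 library was left out (0 without either sham library, 1 without the first NDST3-treated library). Named genes called (51) fell to 28 at 1 CPM or more in every library, where fewer genes are tested, to 0 with 3 libraries, and to 0 to 48 on leaving 1 out. List members called (206) became 377 by DESeq2, 0 with 3 libraries and 0 to 267. Genes with a fold of 2 and raw p under 0.05 (3024) became 2007 at 1 CPM in every library and 1384 by limma on log2(FPKM + 1), and 2304 to 3621 on leaving 1 out. The other scalings and filters, the robust fit and limma gave 2509 to 3645 genes at the adjusted threshold. The cause was not tested. All 3019 called genes kept their direction under each edgeR and DESeq2 alternative that tested them, crossed pairings included, and 1 changed sign under limma.

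The labels do not say what the replicate numbers stand for. The differences of the sham pair and the NDST3-treated pair correlated at -0.466 over 15523 genes. A fit with a replicate block called 0 genes, 0 named genes and 0 list members at an adjusted p under 0.05, with 4583 at an unadjusted p under 0.05, and 2250 by fold and raw p. Crossing the pairing, chosen after seeing the data, called 4795 genes with the 6-OHDA library beside the first sham library and 7044 with it beside the first NDST3-treated library.

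Aqp1 and Gbx2 reversed without the second NDST3-treated library, to -4.15 and -2.13 (log2) with adjusted p-values of 0.0474 and 0.0413, and were 1.28 and 1.69 without the first. Others changed sign without passing the threshold, such as Ttr (-3.42 to 5.42), Kcne2 (-2.06 to 5.24) and Kcnj13 (-3.00 to 1.17). Median H3K27ac ratios at genes that rose and fell were 0.3924 and 0.4133 with a pseudocount of 0.1. The difference in median log2 change between the longest and shortest of 5 equal groups of genes was 0.274, and between the highest and lowest of 5 groups by level 0.245.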
